A study of Mus musculus with 48 samples.

Results

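Toll-like receptors are sensors of microbial molecules, and the 10 genes described here code for the proteins that carry their signal into the cell or hold it back. They were chosen by symbol and by no cutoff on a measured value, though with earlier results of these data known. They are the adaptors Myd88 and Ticam1, the kinases Irak1 and Irak4, the co-receptors Cd14 and Ly96, and the brakes Irak3, Sigirr, Tollip and Tnfaip3. Each symbol matched 1 of the 54532 genes in the count table, and all 10 were among the 21986 genes that passed a filter on low counts. Their Ensembl identifiers are ENSMUSG00000032508 (Myd88), ENSMUSG00000047123 (Ticam1), ENSMUSG00000031392 (Irak1), ENSMUSG00000059883 (Irak4), ENSMUSG00000051439 (Cd14), ENSMUSG00000025779 (Ly96), ENSMUSG00000020227 (Irak3), ENSMUSG00000025494 (Sigirr), ENSMUSG00000025139 (Tollip) and ENSMUSG00000019850 (Tnfaip3).

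RNA was sequenced from whole-thickness pieces of C57Bl/6J mouse small intestine, for which the labels give no treatment and no genetic change. Each piece was 2 cm long, taken either as duodenum, just past the stomach outlet, or as ileum, just ahead of the caecum. Sampling covered 8 postnatal ages (day 0, 2, 4, 6 and 8, then week 2, 3 and 4) in mice of both sexes that stayed with the dam up to day 21 and ate chow afterwards. Each of the 16 groups has 3 samples, and the labels call the housing standard germ-free, which leaves unclear whether the mice carried microbes. By its title, the series follows gene activity through the ages at which necrotizing enterocolitis, a bowel inflammation of preterm infants, can arise.

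A receptor such as Tlr4 recognises bacterial lipopolysaccharide through Ly96, to which Cd14 hands it over. The activated receptor recruits the adaptor Myd88, which assembles the kinases Irak4 and Irak1 and so leads to NF-kappaB, a family of transcription factors that switch on inflammatory genes. Ticam1, also called TRIF, is the adaptor of Tlr3 and of Tlr4 inside the cell, and leads to interferon genes as well. The brakes act at successive steps: Sigirr and Tollip at the receptor and its kinases, Irak3 as an inhibitory kinase relative, and Tnfaip3, also called A20, as an enzyme that edits ubiquitin chains further down. Restraint of this pathway in the gut lining is known for its part in tolerance of gut bacteria.

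A pair of libraries, the duodenum and the ileum sample labelled day 6 number 3, was left out because each had the Pdx1 level of the other region, which leaves 46 samples and 2 in each day 6 group. Levels are given as CPM, the count of a gene relative to its library's total after TMM scaling. Total estimated counts of the 46 ran from 16824021 to 65042327, and mitochondrial RNA made up 13.1% to 35.2% of them. Pdx1, a gene of the proximal gut, was at 1.81 to 25.0 CPM in duodenum and at 0.0678 to 6.51 CPM in ileum, so 6 libraries lay where the regions overlapped: duodenum day 0 number 1, duodenum week 2 number 2, duodenum week 4 number 2, ileum day 0 number 2, and ileum week 4 numbers 1 and 3. Fabp6, a gene of the distal gut, was at 41.7 CPM in ileum week 4 number 1 and at 1936 CPM in number 3. Ddx3y, a gene of the Y chromosome, exceeded 1 CPM in 3 of 3 duodenum day 0 and 1 of 3 ileum day 0 samples, and in 0 of 3 at day 8 and at week 4 in either region. Nothing says that samples of a group are separate animals, so the tests measure the spread between samples, which may in part be technical.

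The promoter windows of the genes were searched for the binding motif of NF-kappaB, since Tnfaip3 is a known target of that factor. Windows of 300 bases from RefSeq (build GRCm38.p6) were at hand for 7 of the 10 genes, and the NF-kappaB consensus, read on both strands, matched in 2 of them, Tnfaip3 and Irak1. Over all 32851 windows, which belong to 27025 genes, 8.46% held a match. The 2 are counted by gene, with a match in any of its windows, so this share by window is of another unit. The stretches that hold the matches are shown because the levels of these genes ran opposite to each other over the groups, with the matches in capitals, 5′ to 3′ on the minus strand, at chr10:19015411-19015547 for Tnfaip3 and chrX:74023922-74024021 for Irak1. Both stretches lie before the RefSeq transcription start, and the first bases of the Tnfaip3 matches are at -125 and -12 from it. In the GENCODE annotation of mm10 the Tnfaip3 stretch is intronic in a longer model of the gene and overlaps no exon, while the end of the Irak1 stretch overlaps the microRNA gene Mir718. A match is a description of letters and no evidence of binding.
Tnfaip3: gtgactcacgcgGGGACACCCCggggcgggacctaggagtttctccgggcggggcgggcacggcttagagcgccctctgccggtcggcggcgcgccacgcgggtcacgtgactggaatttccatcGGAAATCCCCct
Irak1: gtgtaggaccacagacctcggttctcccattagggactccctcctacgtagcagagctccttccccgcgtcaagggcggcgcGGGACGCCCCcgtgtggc

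Per kilobase of exon, Tollip was the most abundant of the 10 and Irak3 the least, a description with no test. The mean over the 16 group means was 22.8 CPM per kilobase for Tollip, 13.1 for Ticam1, 9.66 for Irak1, 7.64 for Myd88, 6.90 for Irak4, 6.34 for Sigirr and 5.65 for Ly96. It was 2.63 for Tnfaip3, 0.912 for Cd14 and 0.469 for Irak3. Brakes thus held both ends of the order. All levels that follow are plain CPM and compare 1 gene between groups only.

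In whole tissue, fewer cells of a type and less RNA per cell cannot be told apart. Age was tested over the 8 time points in each region with edgeR's quasi-likelihood test, and a gene is called where the p-value adjusted over all genes tested is under 0.05. In duodenum 9 of 10 genes varied with age, all but Irak3, beside 67.4% of all genes, and in ileum 9 of 10, all but Irak1, beside 58.7%. The ileum call of Tollip ended without ileum day 8 number 1 (adjusted p = 0.0795) and with a sex index, the log2 ratio of Xist to Ddx3y, as covariate (0.0542). These shares are high for genes at large, so the counts alone set the 10 genes little apart. Highest and lowest group means differed from 1.76-fold for Irak1 to 13.1-fold for Cd14. When the 16 group means of a gene are put in order, between 0 (Ly96) and 3 (Tnfaip3) of 15 neighbouring pairs had samples that did not overlap. Sorting by mean sets like groups side by side for any gene, and the share over all genes is not given. These counts thus describe the order only.

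**Figure D1:**
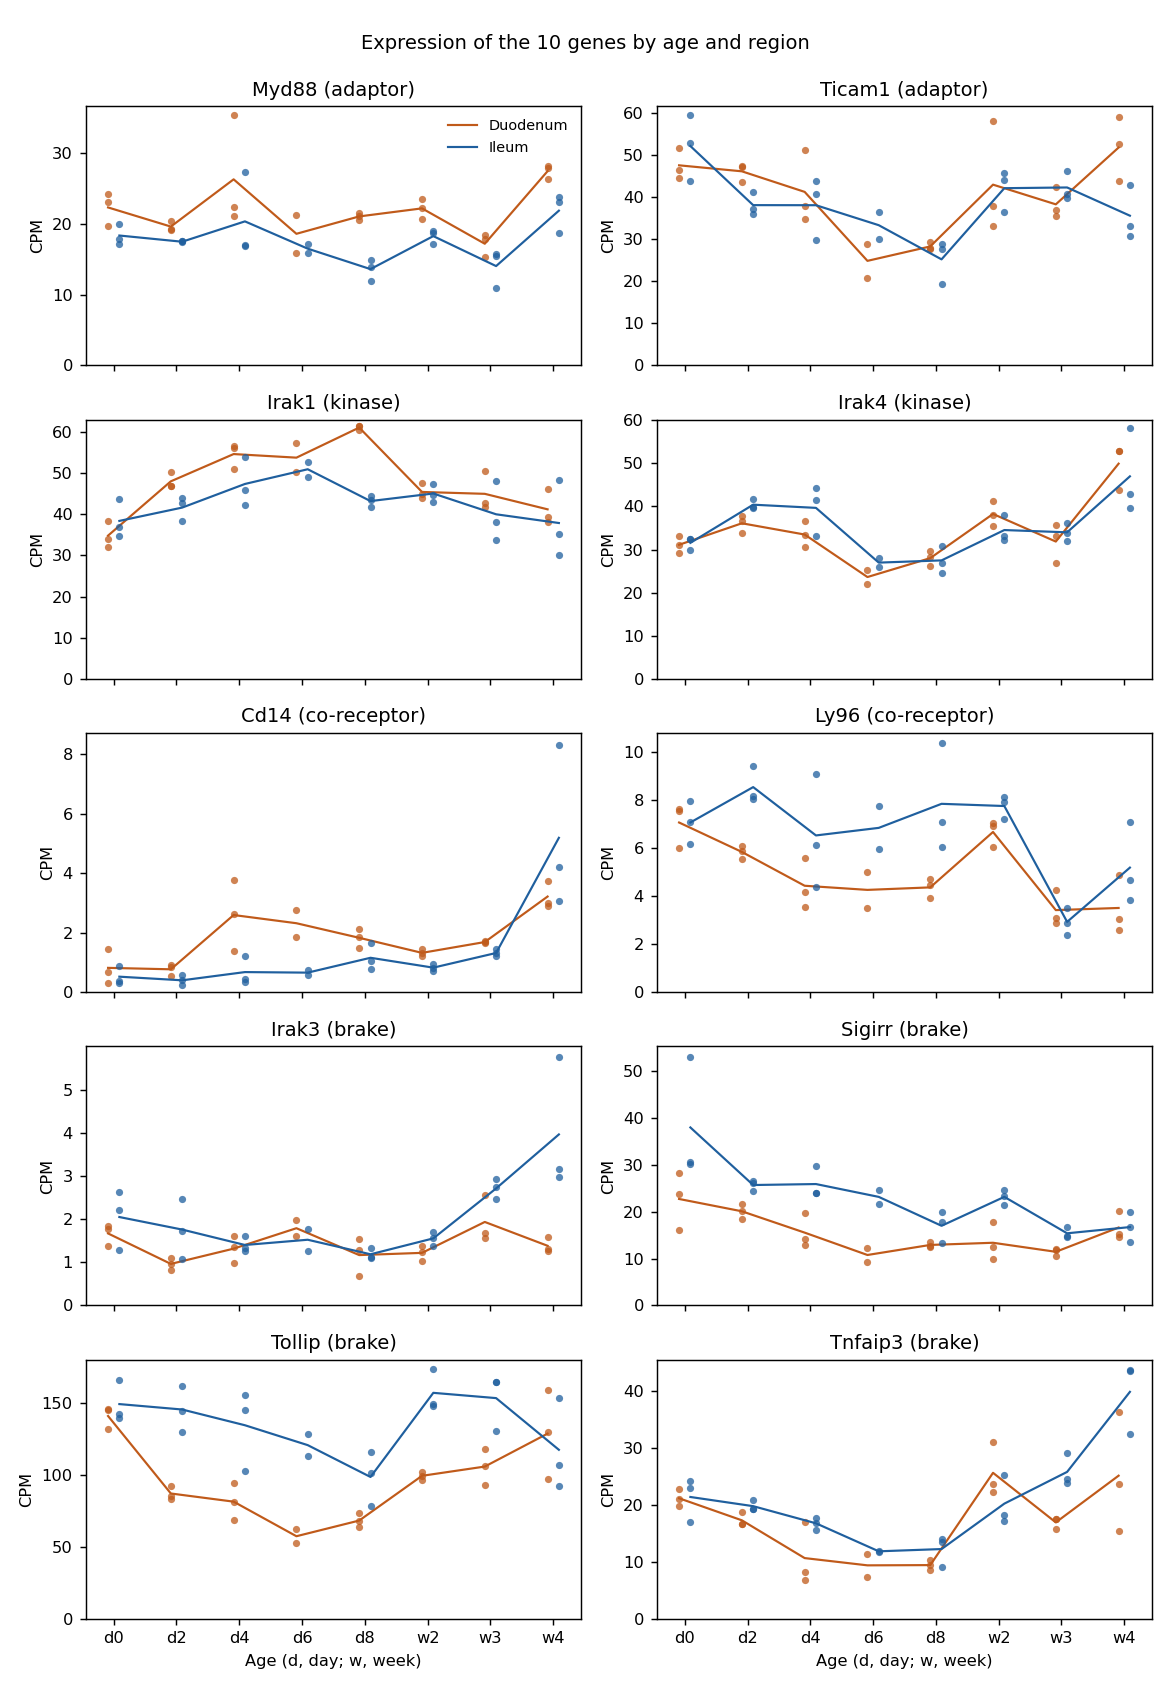
Levels of the 10 genes in CPM (vertical axis, linear from 0) at the 8 ages (horizontal axis, equally spaced categories). Points are samples and lines join group means, orange for duodenum and blue for ileum. Cd14, Irak3 and Tnfaip3 had their highest mean in ileum at week 4 (5.19, 3.96 and 39.9 CPM), and Sigirr had its highest in ileum at day 0 (38.0 CPM).

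Myd88, the adaptor used by most Toll-like receptors, was higher in duodenum than in ileum and rose late in both. In duodenum its samples were at 18.5, 17.8 and 15.3 CPM at week 3 and at 26.3, 27.9 and 28.2 CPM at week 4. In ileum they were at 15.7, 15.4 and 10.9 CPM at week 3 and at 23.1, 23.8 and 18.6 CPM at week 4. In each region every week 4 sample lay above every week 3 sample. The rise was 0.67 ± 0.17 (log2 ± SE) in duodenum (adjusted p = 0.00577) and 0.64 ± 0.17 in ileum (adjusted p = 0.00764). The ileum call ended without ileum week 3 number 3, the lowest of the 6 (log2 0.49, adjusted p = 0.0570), and with only its own groups in the fit (0.0637). From day 0 to week 4 the difference was 0.30 ± 0.17 in duodenum and 0.26 ± 0.17 in ileum, with adjusted p of 0.161 and 0.237.

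Ticam1, the adaptor that serves Tlr3, was low around day 8 and high at both ends of the series in duodenum. Duodenum samples were at 46.5, 44.7 and 51.6 CPM at day 0, at 29.3, 27.7 and 27.9 CPM at day 8, and at 43.8, 59.1 and 52.6 CPM at week 4. Ileum samples were at 53.0, 44.0 and 59.6 CPM at day 0, at 19.3, 27.6 and 28.8 CPM at day 8, and at 42.9, 33.1 and 30.9 CPM at week 4. No day 8 sample reached the day 0 range in either region. The fall to day 8 was -0.75 ± 0.18 in duodenum (log2, adjusted p = 0.00106) and -1.05 ± 0.19 in ileum (adjusted p = 7.6e-05). Ticam1 then rose to week 2 by 0.60 ± 0.18 in duodenum (adjusted p = 0.0218) and by 0.74 ± 0.19 in ileum (adjusted p = 0.0135). Both rises rested on single libraries: the duodenum call ended without week 2 number 1 (log2 0.33, adjusted p = 0.329) or any day 8 sample (adjusted p 0.0546 to 0.0723), and the ileum call without day 8 number 1 (0.190) or week 2 number 1 (0.0673) or 3 (0.0602). At week 4 ileum was still below its day 0 level, by -0.55 ± 0.18 (adjusted p = 0.0150), a call that ended without day 0 number 3 (0.0847) or week 4 number 3 (0.0600).

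Irak1, the kinase that Irak4 activates, rose in duodenum over the first week, as did Cd14, while 5 others of the 10 fell. Duodenum samples were at 34.0, 32.2 and 38.3 CPM at day 0 and at 60.5, 61.5 and 61.4 CPM at day 8. The day 8 group had an SD of 0.548 CPM and stood clear of the next group in the order. The difference was 0.81 ± 0.14 (log2, adjusted p = 8.8e-06). In ileum Irak1 was at 43.6, 34.7 and 36.9 CPM at day 0 and at 41.8, 44.4 and 43.5 CPM at day 8, ranges that overlap (0.17 ± 0.14, adjusted p = 0.420). In duodenum Irak1 fell again to 43.9, 44.9 and 47.6 CPM at week 2 (-0.43 ± 0.14, adjusted p = 0.0288). This call ended without any 1 of day 8 numbers 1, 2 and 3 and week 2 numbers 1 and 2, with adjusted p from 0.0663 to 0.128, with the sex index (0.0520) and with no filter on low counts (0.147). Irak1 lies on the X chromosome. The rise from day 0 to day 8 kept its call with the sex index. However, Ddx3y exceeded 1 CPM in 3 of 3 duodenum samples at day 0 and in 0 of 3 at day 8. Sex and age thus go together in these groups, and the index cannot tell them apart.

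Irak4, the first kinase to join Myd88, ended at its highest level in both regions. In duodenum it was at 29.2, 33.1 and 31.0 CPM at day 0 and at 43.9, 53.0 and 52.9 CPM at week 4, and in ileum at 32.3, 32.5 and 29.8 CPM and at 58.3, 43.0 and 39.7 CPM. The week 4 samples of either region lay above all day 0 samples. The rise was 0.68 ± 0.13 in duodenum (log2, adjusted p = 7.27e-05) and 0.57 ± 0.13 in ileum (adjusted p = 0.000637). The step from week 3 to week 4 was 0.65 ± 0.13 in duodenum (adjusted p = 0.000725) and 0.47 ± 0.13 in ileum (adjusted p = 0.0130). The ileum step ended without ileum week 4 number 1 (log2 0.26, adjusted p = 0.208) or week 3 number 1 (0.0718), with no filter on low counts (0.0986) and with only its own groups in the fit (0.134). Without the 6 libraries of overlapping Pdx1 level, which leaves 1 ileum week 4 sample assumed to vary like the rest, the adjusted p was 0.0859 for the ileum rise from day 0 (log2 0.44) and 0.315 for that from week 3 (0.32). In duodenum Irak4 was also higher at week 2 than at day 8, by 0.45 ± 0.13 (adjusted p = 0.0185), a call that ended without day 8 number 1 (0.0547) or 2 (0.0893) or week 2 number 1 (0.116).

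Cd14, the co-receptor that passes lipopolysaccharide to Ly96, changed more than any other of the 10 and from the lowest counts, 5 to 268 in a sample. In ileum it was at 0.370, 0.877 and 0.309 CPM at day 0, at 1.44, 1.3 and 1.21 CPM at week 3, and at 4.20, 8.32 and 3.07 CPM at week 4. In duodenum it was at 0.305, 0.683 and 1.46 CPM at day 0 and at 3.00, 3.75 and 2.90 CPM at week 4. Week 4 samples lay above all day 0 samples in both regions. Against day 0 the week 4 level was 10.4-fold higher in ileum (log2 3.37 ± 0.48, adjusted p = 3.28e-07) and 3.83-fold higher in duodenum (1.94 ± 0.45, adjusted p = 0.000555). The ileum rise from week 3 alone was 1.99 ± 0.45 (adjusted p = 0.00132). In duodenum Cd14 was already up at day 8, at 1.87, 2.13 and 1.48 CPM (1.12 ± 0.44, adjusted p = 0.0386). That earlier call ended without duodenum day 0 number 1 (log2 0.73, adjusted p = 0.229) or 2 (0.116), or day 8 number 1 (0.0740) or 2 (0.109), with the sex index (0.110), and without the 6 libraries of overlapping Pdx1 level (log2 0.72, adjusted p = 0.206).

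The macrophage and monocyte list, whose cells are known for Cd14, moved the other way from day 0 to week 4. Its 10 markers summed to 104 to 124 CPM in ileum at day 0 and to 48.5 to 79.6 CPM at week 4, with 1 of 10 higher, 4 of 10 lower and none at 0. The neutrophil list summed to 3.99 to 7.97 CPM at day 0 and to 4.20 to 13.4 CPM at week 4 in ileum, with 0 of 6 markers tested higher, 2 of 6 lower, and Ly6g and Elane at 0 in both groups. The epithelium list rose over that span: its sum was 3580 to 4432 CPM in ileum at day 0 and 7844 to 12107 CPM at week 4. Of its 8 markers 7 were higher and 1 lower. From week 3 to week 4, when ileum Cd14 rose as well, 0 of 8 were higher and 2 lower, from a sum of 9800 to 13009 CPM. Over that step the macrophage and monocyte sum went from 40.7 to 50.6 CPM to 48.5 to 79.6 CPM, with 1 of 10 markers higher and 1 lower. T cell markers in ileum summed to 1.85 to 3.17 CPM at day 0 and 45.6 to 67.5 CPM at week 4, and 6 of 6 were higher. B and plasma cell markers summed to 0.887 to 1.47 CPM and then 65.2 to 250.7 CPM, and 5 of 5 were higher. The part of these cell types in the rise of Cd14, Irak3 and Tnfaip3 was not tested.

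Ly96, the protein that binds lipopolysaccharide on Tlr4, dropped at week 3. In ileum it was at 7.23, 8.12 and 7.91 CPM at week 2 and at 2.36, 2.90 and 3.52 CPM at week 3. In duodenum it was at 7.05, 6.92 and 6.05 CPM at week 2 and at 2.88, 4.25 and 3.11 CPM at week 3. No week 3 sample reached the week 2 range of its region. The change was -1.41 ± 0.26 in ileum (log2, adjusted p = 4.76e-05) and -0.97 ± 0.25 in duodenum (adjusted p = 0.00474). The macrophage list summed to 145 to 180 CPM at week 2 and 40.7 to 50.6 CPM at week 3 in ileum, and to 119 to 168 CPM and 48 to 71.4 CPM in duodenum, with 2 of 10 and 1 of 10 markers called lower. The median log2 change of the 10 markers of that list was -0.71 in ileum and -0.18 in duodenum. Over the 16 group means Ly96 and the log2 sum of that list had a Pearson r of 0.849, given as a description. This was the highest r of Ly96 among the marker lists, beside 0.657 with endothelium, 0.622 with mesenchyme and -0.773 with epithelium. The part of macrophages in the level of Ly96 was not tested.

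Ly96 in duodenum was also lower at week 4 than at day 0, at 4.88, 3.06 and 2.58 CPM against 7.62, 6.01 and 7.56 CPM (-1.01 ± 0.25, adjusted p = 0.00139). The fall to day 8, to 4.46, 3.90 and 4.73 CPM, was -0.70 ± 0.25 (adjusted p = 0.0227). It ended without duodenum day 0 number 1 (0.0699) or 3 (0.0613), without day 8 number 2 (0.0869), with the sex index (0.0704), and without the 6 libraries of overlapping Pdx1 level (log2 -0.65, adjusted p = 0.0675). Macrophage markers were lower at day 8 than at day 0 in duodenum for 10 of 10 and in ileum for 0 of 10. Ileum Ly96 rose from week 3 to week 4 (4.66, 3.82 and 7.08 CPM, 0.82 ± 0.26, adjusted p = 0.0280), a call that ended without week 4 number 3 (log2 0.49, adjusted p = 0.285) or week 3 number 1 (0.161) or 2 (0.0748). Without the 6 libraries of overlapping Pdx1 level the value was 0.37 (adjusted p = 0.627).

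Irak3, also called IRAK-M, a brake known from macrophages, was scarce and rose late in ileum, and its age effect in duodenum missed the threshold (adjusted p = 0.0620). That effect was called with DESeq2 (0.0252), in the 40 samples of the normalized tables (0.0214), with a mean count of at least 10 (0.0285) and with the sex index (0.0223), and over all alternatives its adjusted p ran from 0.0214 to 0.240. Ileum samples were at 1.71, 1.38 and 1.57 CPM at week 2, at 2.92, 2.75 and 2.46 CPM at week 3 and at 2.97, 3.16 and 5.75 CPM at week 4, from 48 to 102 counts each. Duodenum samples at week 4 were at 1.25, 1.58 and 1.31 CPM, below every ileum sample of that age. The ileum level was 2.84-fold higher at week 4 (log2 1.51 ± 0.31, adjusted p = 0.000574), and this call held under every alternative run. From day 0, at 1.29, 2.21 and 2.64 CPM, to week 4 the ileum rise was 0.94 ± 0.31 (adjusted p = 0.0129). It ended without ileum week 4 number 3 (log2 0.55, adjusted p = 0.184) or day 0 number 1 (0.104), without the 6 libraries of overlapping Pdx1 level (log2 0.65, adjusted p = 0.326), with no filter on low counts (0.0644) and with only its own groups in the fit (0.0972). The step from week 2 to week 3 was 0.80 ± 0.31 (adjusted p = 0.0485) and ended without any 1 of the 6 libraries compared, with adjusted p from 0.0579 to 0.149.

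Sigirr, a receptor-like brake known from intestinal epithelium, was highest in newborn ileum and fell in both regions. In ileum it was at 53.1, 30.6 and 30.3 CPM at day 0, at 13.2, 19.9 and 17.9 CPM at day 8 and at 16.8, 19.9 and 13.5 CPM at week 4. In duodenum it was at 28.3, 23.8 and 16.1 CPM at day 0, at 13.6, 12.5 and 12.6 CPM at day 8 and at 15.3, 20.1 and 14.5 CPM at week 4. Every ileum day 0 sample lay above every later sample of that region, and number 1 stood far above the other two. The fall from day 0 to day 8 was -1.16 ± 0.21 in ileum (log2, adjusted p = 0.000129) and -0.81 ± 0.21 in duodenum (adjusted p = 0.00202). By week 4 the difference from day 0 was -1.18 ± 0.21 in ileum (adjusted p = 2.26e-05) and -0.45 ± 0.21 in duodenum (adjusted p = 0.0891). These ileum calls held without any single library. The smaller ileum step from week 2 to week 3 (-0.59 ± 0.21, adjusted p = 0.0358) ended without week 2 number 2 or 3 or week 3 number 1 or 3, with adjusted p from 0.0758 to 0.105, and with RLE size factors (0.0526).

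Tollip, which binds Irak1 and holds it inactive at rest, fell in both regions over the first week, and its duodenum samples were already low at day 2. Duodenum samples were at 146, 146 and 132 CPM at day 0, at 85.3, 92.7 and 83.6 CPM at day 2, at 73.5, 63.9 and 67.7 CPM at day 8 and at 97.4, 159 and 130 CPM at week 4. Ileum samples were at 166, 140 and 142 CPM at day 0, at 130, 162 and 145 CPM at day 2, at 78.3, 116 and 102 CPM at day 8 and at 149, 148 and 174 CPM at week 2. At day 2 the regions no longer overlapped. The change from day 0 to day 8 was -1.05 ± 0.18 in duodenum (log2, adjusted p = 7.87e-06) and -0.60 ± 0.17 in ileum (adjusted p = 0.0125). Tollip then rose to week 2 by 0.54 ± 0.17 in duodenum (adjusted p = 0.0300) and 0.67 ± 0.17 in ileum (adjusted p = 0.0169). The ileum calls ended without day 8 number 1, the lowest (adjusted p = 0.123 for the fall and 0.212 for the rise), the fall also without day 0 number 1 (0.0675) and the rise without week 2 number 3 (0.0945). The duodenum rise ended without any 1 of its 6 libraries, with adjusted p from 0.0525 to 0.113.

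Tnfaip3, the ubiquitin-editing brake, was low at day 8 and had its highest level in ileum at week 4. Ileum samples were at 22.9, 17.0 and 24.3 CPM at day 0, at 9.18, 13.5 and 14.1 CPM at day 8 and at 43.6, 43.5 and 32.4 CPM at week 4. Duodenum samples were at 21.0, 22.7 and 19.7 CPM at day 0, at 10.3, 9.51 and 8.52 CPM at day 8, at 31.0, 22.2 and 23.7 CPM at week 2 and at 15.5, 36.4 and 23.6 CPM at week 4. The 3 ileum week 4 samples were above all other ileum samples, while duodenum week 4 was spread across its day 0 range. The fall to day 8 was -1.17 ± 0.25 in duodenum (log2, adjusted p = 0.000207) and -0.80 ± 0.25 in ileum (adjusted p = 0.0182), the latter ending without ileum day 0 number 1 (0.0589) or 3 (0.0829) or day 8 number 1 (0.135). In duodenum the rebound to week 2 was 1.44 ± 0.25 (adjusted p = 0.000267). From day 0 to week 4 Tnfaip3 rose by 0.90 ± 0.24 in ileum (adjusted p = 0.00307). Without the 6 libraries of overlapping Pdx1 level that rise was 0.86 with an adjusted p of 0.0547. In duodenum the same interval gave 0.25 ± 0.24 (adjusted p = 0.435).

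**Figure D2:**
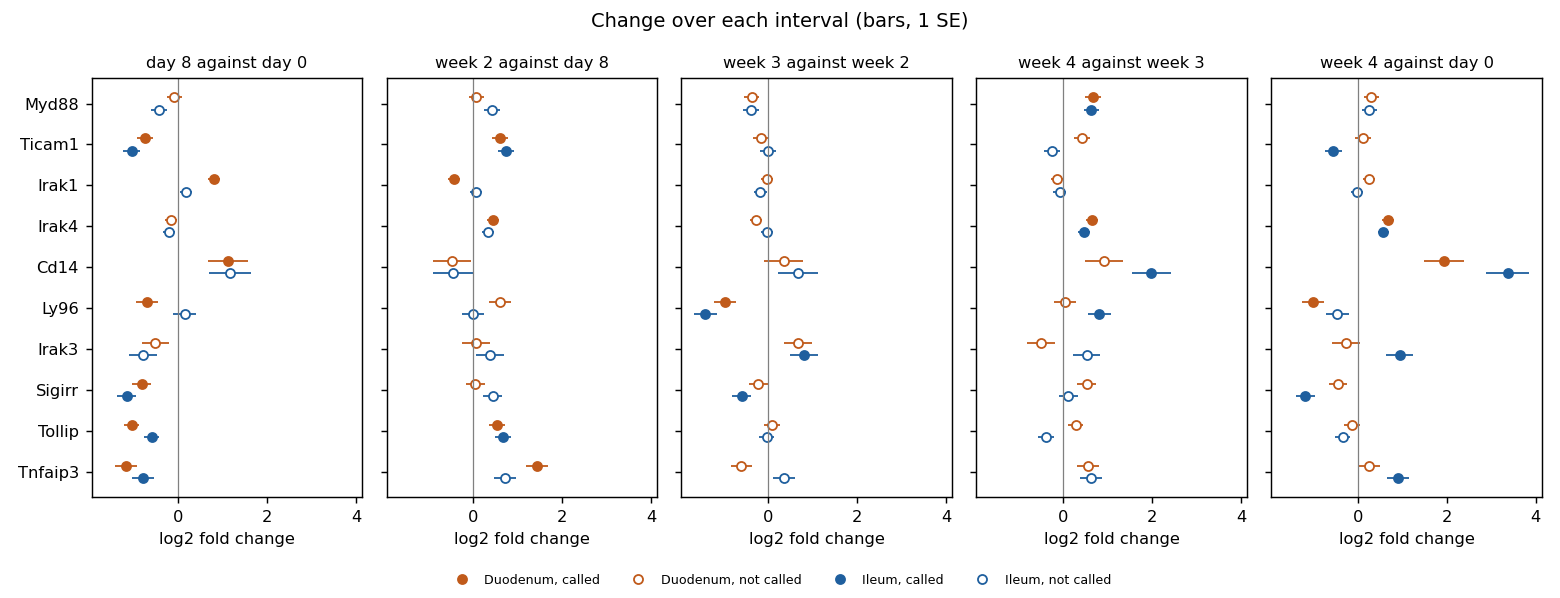
Log2 fold change of each gene (horizontal axis) over 5 intervals, with 1 SE as bars. Orange is duodenum, blue is ileum, and filled points have an adjusted p under 0.05. From day 0 to day 8 Ticam1, Sigirr, Tollip and Tnfaip3 were called lower in both regions, and from day 0 to week 4 the largest value was that of Cd14 in ileum, 3.37.

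Counted by interval, more genes fell than rose in the first week, and those called in the last week rose. From day 0 to day 8, 5 of 10 genes were lower and 2 higher in duodenum, beside 41.2% of all genes called (19.2% lower, 22% higher), and 4 of 10 were lower and 0 higher in ileum, beside 19.3% (10.7% lower). The 4 genes lower in ileum, Ticam1, Sigirr, Tollip and Tnfaip3, were among the 5 lower in duodenum. The median log2 change of the 10 was -0.61 in duodenum and -0.51 in ileum, beside -0.06 and 0.01 over all genes tested. Endothelium markers were lower over that interval for 5 of 5 in duodenum and 3 of 5 in ileum, and their part in these changes was not tested. From day 8 to week 2, 4 were higher and 1 lower in duodenum, beside 15.7% called (6.75% higher, 8.93% lower), and 2 were higher in ileum, beside 6.64% (4.17% higher). In the next interval, to week 3, 1 of 10 was lower in duodenum, beside 18.3% (10.6% lower). In ileum 1 was higher and 2 were lower, beside 26.8% (12.9% higher, 13.9% lower). From then to week 4, 2 were higher in duodenum, beside 12.7% (7.75% higher), and 4 in ileum, beside 16.1% (8.26% higher). T cell markers were higher over that last interval for 4 of 6 in duodenum and 6 of 6 in ileum, and B and plasma cell markers for 5 of 5 in each, and their part was not tested either.

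Over the whole span from day 0 to week 4 the genes called were 2 higher and 1 lower in duodenum, beside 40.5% of all genes (20.4% higher, 20.1% lower). In ileum 4 were higher and 2 lower, beside 41.9% (21.5% higher, 20.4% lower). The duodenum count is somewhat under the share of genes at large and the ileum count somewhat above it, which for 10 genes sets them little apart. The test of the difference in this change between regions, given below, called 0 of 10. Without the 6 libraries of overlapping Pdx1 level the ileum counts were lower for the step from week 3 to week 4 and for the whole span. That fit leaves 1 ileum week 4 sample, and the share of all genes called in it is not given here. The loss can thus not be read as particular to these genes.

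The next comparison asked whether level differed by region. Averaged over the 8 ages, 8 of 10 genes differed beside 62.1% of all genes, 5 higher in ileum (31.9% of all genes) and 3 in duodenum (30.2%). Higher in ileum were Sigirr (log2 0.57 ± 0.08, adjusted p = 5.85e-08), Tollip (0.53 ± 0.06, adjusted p = 5.23e-09), Irak3 (0.42 ± 0.11, adjusted p = 0.00143) and Tnfaip3 (0.31 ± 0.09, adjusted p = 0.00258), which are all 4 brakes, and Ly96 (0.40 ± 0.09, adjusted p = 0.000304). Higher in duodenum were Cd14 (-0.80 ± 0.17, adjusted p = 6.86e-05), Myd88 (-0.31 ± 0.06, adjusted p = 3.73e-05) and Irak1 (-0.14 ± 0.05, adjusted p = 0.0124). Ticam1 (-0.05 ± 0.07) and Irak4 (0.06 ± 0.05) did not pass, with adjusted p of 0.512 and 0.324. Of 18 further brakes of the pathway tested, 8 were higher in ileum and 3 in duodenum, beside the same shares of all genes. At week 4 Sigirr was at a mean of 16.7 CPM in ileum and 16.6 CPM in duodenum. Each of the 8 calls among the 10 genes held without any single library. Without the 6 libraries of overlapping Pdx1 level, Irak1 lost its call (log2 -0.10, adjusted p = 0.101).

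Cell type lists differed by region as well. Smooth muscle markers were higher in ileum for 5 of 5, mesenchyme for 5 of 5 and endothelium for 4 of 5, with medians of 2.08, 2.06 and 0.74 (log2). Epithelium markers were higher in ileum for 1 of 8 and lower for 3 of 8 (median -0.11), and macrophage markers higher for 2 of 10 and lower for 0 (median 0.06). Pancreatic acinar markers were lower in ileum for 5 of 6 (median -4.62). Their part in the regional levels was not tested.

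**Figure D3:**
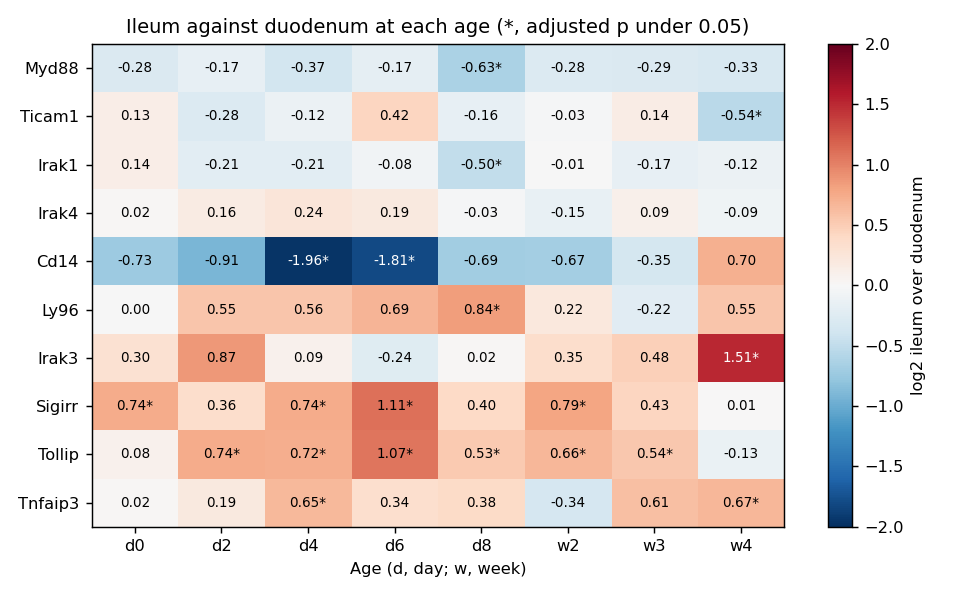
Log2 of ileum over duodenum for each gene (rows) at each age (columns). Red is higher in ileum, blue is higher in duodenum, and an asterisk marks an adjusted p under 0.05. Tollip was called at 6 ages from day 2 to week 3 and at neither end.

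At single ages 19 of the 80 gene and age pairs were called, 14 higher in ileum and 5 in duodenum, beside 22.6% of pairs over all genes (10.7% higher in ileum, 11.8% in duodenum). By age, 1 gene was called at day 0 beside 6.1% of all genes, 1 at day 2 beside 8.01%, 4 at day 4 beside 26.6%, 3 at day 6 beside 35.3%, 4 at day 8 beside 39.6%, 2 at week 2 beside 22.4%, 1 at week 3 beside 14.2% and 3 at week 4 beside 28.4%. Tollip made up 6 of these 19 pairs, from 0.53 ± 0.17 at day 8 to 1.07 ± 0.22 at day 6 (log2). At day 6 it was at 52.7 and 62.2 CPM in duodenum and at 113 and 128 CPM in ileum. No call was made at either end, with Tollip differences of 0.08 ± 0.17 at day 0 and -0.13 ± 0.17 at week 4 (adjusted p = 0.873 and 0.593). These ages hold libraries of overlapping Pdx1 level: duodenum day 0 number 1, ileum day 0 number 2, duodenum week 4 number 2, and ileum week 4 numbers 1 and 3. Whether the regions meet there can thus not be told. The Tollip call ended at week 3 without duodenum number 2 or 3 or ileum number 1 or 2 (adjusted p 0.0944 to 0.142), and at day 8 without duodenum number 2 (0.0581) or ileum number 2 (0.103). With all 48 samples kept under their labels 6 pairs of the 80 were called, and Tollip lost 5 of its 6 calls, with adjusted p from 0.0508 to 0.740. The share of pairs over all genes in that fit is not given here.

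Sigirr was called at 4 ages. It was 2.15-fold higher in ileum at day 6 (log2 1.11 ± 0.26, adjusted p = 0.00121), where duodenum was at 9.19 and 12.3 CPM and ileum at 21.6 and 24.7 CPM, and 1.67-fold at day 0 (0.74 ± 0.21, adjusted p = 0.0281). It was also higher at day 4 (0.74 ± 0.21, adjusted p = 0.00919) and week 2 (0.79 ± 0.21, adjusted p = 0.00641). The day 0 call ended without ileum number 1 (log2 0.42, adjusted p = 0.372) or duodenum number 2 (0.0698) or 3 (0.182), the day 4 call without duodenum number 2 (0.0630) or ileum number 1 (0.0643), and the week 2 call without duodenum number 2 (0.0692) or the 6 libraries of overlapping Pdx1 level (0.0512).

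Cd14 was higher in duodenum at the 2 ages at which it was called. At day 4 duodenum was at 1.38, 2.64 and 3.77 CPM and ileum at 0.346, 1.23 and 0.447 CPM, which do not overlap (log2 -1.96 ± 0.46, adjusted p = 0.00177). At day 6 duodenum was at 1.86 and 2.78 CPM and ileum at 0.565 and 0.744 CPM (-1.81 ± 0.56, adjusted p = 0.0112). The day 6 call, on 2 samples a group, ended without duodenum number 2 (adjusted p = 0.102) or ileum number 1 (0.101) or 2 (0.0541). By week 4 the direction of the means had turned, at 3.22 ± 0.466 CPM in duodenum and 5.19 ± 2.76 CPM in ileum (SD, n = 3), and the difference did not pass (0.70 ± 0.42, adjusted p = 0.205). The macrophage list stood at 46.1 to 48.3 CPM in duodenum and 163 to 170 CPM in ileum at day 6, opposite in direction to Cd14.

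The remaining calls were spread. At day 8 Myd88 (-0.63 ± 0.17, adjusted p = 0.00388) and Irak1 (-0.50 ± 0.14, adjusted p = 0.00401) were higher in duodenum, and Ly96 was higher in ileum (0.84 ± 0.25, adjusted p = 0.00783). The Ly96 call ended without ileum day 8 number 1 (log2 0.59, adjusted p = 0.0867). At week 4 Ticam1 was higher in duodenum (-0.54 ± 0.18, adjusted p = 0.0269), a call that ended without duodenum number 2 (0.0700) or ileum number 2 (0.0651) or 3 (0.0929), or without the 6 libraries of overlapping Pdx1 level (0.162). Tnfaip3 was called higher in ileum at day 4 (0.65 ± 0.25, adjusted p = 0.0463) and week 4 (0.67 ± 0.24, adjusted p = 0.0380), though its samples overlapped both times. The day 4 call ended without duodenum number 2 or 3 or any ileum sample (adjusted p 0.0714 to 0.269), and the week 4 call without duodenum number 1 or 3 or any ileum sample (0.0523 to 0.274). Irak4 was called at none of the 8 ages.

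Whether the age profile itself differed between regions was tested as an interaction, which called 2 of 10 genes, beside 22.4% of all genes. They were Tollip (adjusted p = 0.0124) and Cd14 (adjusted p = 0.0381). Irak3 missed the threshold (0.0622), but was called under the same 4 alternatives as its duodenum age effect, with adjusted p from 0.0231 to 0.0371 (0.0231 to 0.314 over all alternatives). Tollip held without any single library but not without the 6 libraries of overlapping Pdx1 level (adjusted p = 0.0750). The Cd14 call ended in 12 of the fits that leave out 1 library, most of all without ileum week 4 number 2 (adjusted p = 0.130). The change from day 0 to week 4 was compared between regions on its own and edgeR called 0 of 10, beside 5.99% of all genes. DESeq2 also called 0, and 4 of 10 had an unadjusted p under 0.05: Irak3 (ileum minus duodenum 1.21 ± 0.44, adjusted p = 0.0850), Ticam1 (-0.67 ± 0.26, 0.109), Sigirr (-0.73 ± 0.30, 0.132) and Cd14 (1.43 ± 0.64, 0.163). So the larger ileum rise of Cd14, 3.37 against 1.94, was not shown to differ from that in duodenum. Without the 6 libraries of overlapping Pdx1 level Cd14 alone was called (log2 3.17, adjusted p = 0.00910), but that fit leaves ileum week 4 with number 2 only, the highest of its 3 samples in Cd14 at 8.32 CPM.

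**Figure D4:**
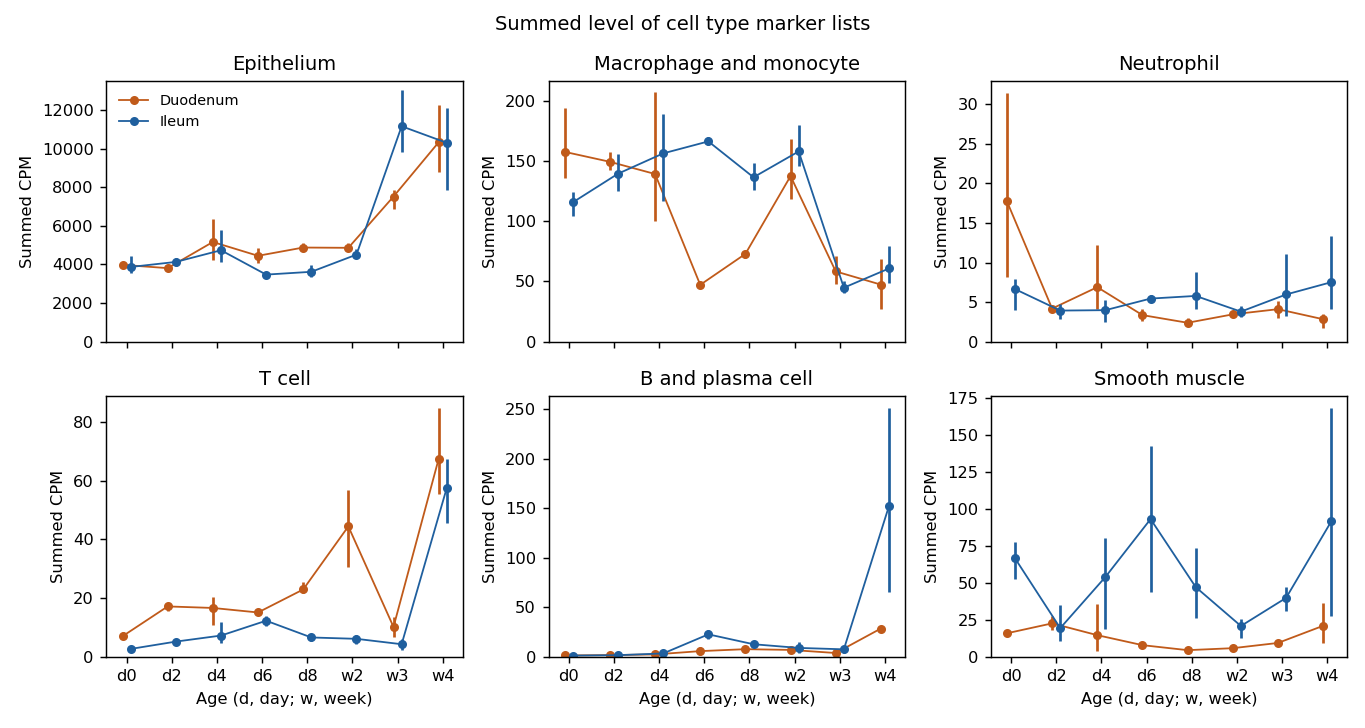
Summed CPM of 6 cell type marker lists (vertical axes, linear from 0) at the 8 ages, as group means with the range of samples as bars. Orange is duodenum and blue is ileum. In ileum the macrophage and monocyte sum was 157.9 CPM at week 2 and 44.8 CPM at week 3, and the epithelium sum was 4508 and 11151 CPM.

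The rest of the pathway was followed through lists of receptors, other adaptors, downstream proteins, other brakes and target cytokines. In all of these lists the counts stand beside 20.4% of all genes higher and 20.1% lower from day 0 to week 4 in duodenum, and 21.5% and 20.4% in ileum. Of 18 other brakes tested, 11 rose and 2 fell from day 0 to week 4 in duodenum and 12 rose and 2 fell in ileum, with median log2 changes of 1.02 and 1.71 beside -0.02 and 0.08 over all genes. Nfkbia, the inhibitor that holds NF-kappaB in the cytoplasm, rose in ileum from 21.3 ± 4.20 to 86.2 ± 4.84 CPM (log2 2.01 ± 0.20, adjusted p = 1.93e-10). Zc3h12a, an RNase that destroys cytokine messages, rose in ileum from 4.98 ± 2.04 to 43.7 ± 7.55 CPM (3.13 ± 0.31, adjusted p = 9.18e-11). Socs1, a brake on cytokine signalling, rose in ileum from 0.409 ± 0.0967 to 5.79 ± 1.94 CPM (3.83 ± 0.37, adjusted p = 7.04e-11). All of these were called higher in duodenum too, by 1.79 ± 0.20 for Nfkbia, 1.91 ± 0.29 for Zc3h12a and 3.43 ± 0.37 for Socs1 (log2).

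Among the receptors opposite changes were found. Of 11 tested, 3 rose and 5 fell in duodenum and 5 rose and 2 fell in ileum from day 0 to week 4, with medians of -1.34 and 0.99. Tlr5, the receptor of flagellin, fell in duodenum from 30.4 ± 2.87 to 1.18 ± 0.728 CPM (log2 -4.71 ± 0.30, adjusted p = 7.92e-16) and in ileum from 31.3 ± 5.69 to 0.890 ± 0.358 CPM (-5.05 ± 0.31, adjusted p = 4.39e-16). Tlr3, the receptor of double-stranded RNA that signals through Ticam1, rose in duodenum from 3.33 ± 0.0901 to 54.1 ± 5.19 CPM (4.02 ± 0.36, adjusted p = 1.14e-11) and in ileum from 1.65 ± 0.935 to 38.5 ± 3.58 CPM (4.55 ± 0.38, adjusted p = 1.37e-12). Ticam1 itself was at 0.12 ± 0.18 in duodenum (adjusted p = 0.626) and, as given above, at -0.55 in ileum over that interval.

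Of 10 other adaptors and accessory proteins, 2 rose and 2 fell in duodenum and 3 rose and 2 fell in ileum. Tirap, which bridges Tlr2 and Tlr4 to Myd88, fell in duodenum from 25.7 ± 1.13 to 14.6 ± 0.427 CPM (-0.82 ± 0.16, adjusted p = 5.92e-05) and in ileum from 27.1 ± 4.82 to 17.0 ± 2.11 CPM (-0.67 ± 0.16, adjusted p = 0.000721). Unc93b1, which carries Tlr3 and other nucleic acid receptors to endosomes, rose in ileum from 9.55 ± 2.12 to 33.2 ± 6.97 CPM (1.80 ± 0.20, adjusted p = 1.34e-09). Its rise in duodenum was 0.87 ± 0.19 (adjusted p = 0.000354). Of 22 downstream proteins, 9 rose and 4 fell in duodenum (median 0.12) and 10 rose and 3 fell in ileum (median 0.37). Relb, an NF-kappaB subunit, rose in ileum from 6.42 ± 1.36 to 57.1 ± 7.88 CPM (3.15 ± 0.23, adjusted p = 2.82e-14). Its rise in duodenum was of like size, 3.21 ± 0.23 (adjusted p = 2.68e-14). Of 9 target cytokines and related genes tested, 3 rose and 2 fell in duodenum (median 0.89) and 4 rose and 1 fell in ileum (median 1.69). Ccl5, a chemokine made by T cells among others, rose in ileum from 0.116 ± 0.0481 to 6.63 ± 2.02 CPM (5.86 ± 0.72, adjusted p = 1.59e-08), and Icam1, an adhesion molecule of endothelium, fell in duodenum from 6.12 ± 0.789 to 1.69 ± 0.493 CPM (-1.86 ± 0.28, adjusted p = 1.26e-06). Both were called in the same direction in the other region, Ccl5 in duodenum (6.71 ± 0.71, adjusted p = 6.57e-10) and Icam1 in ileum (-0.84 ± 0.27, adjusted p = 0.0121). Endothelium markers were lower at week 4 for 5 of 5 in duodenum and 4 of 5 in ileum, and the part of such shifts in these lists was not tested.

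Over the 16 group means of log2 CPM, the 10 genes fell into partly opposed profiles, given as correlations without a test since the means share libraries and age. Pearson r was 0.752 for Irak4 with Tnfaip3 and 0.698 for Sigirr with Tollip. It was -0.816 for Irak1 with Tnfaip3 and -0.743 for Irak1 with Tollip. Among 11353 genes of mean log2 CPM of at least 1, the profile most like that of Irak1 was E2f1, a cell cycle transcription factor (r = 0.949). For Tollip it was Cttn, an actin-binding protein (0.957), for Sigirr it was Nagk (0.960) and then the lysosomal protease Ctsd (0.945), and for Ly96 it was Smpdl3a (0.936). For Cd14 it was Cd38, an enzyme that consumes NAD (0.950), for Tnfaip3 Clec2h (0.917), for Irak4 Lrrc1 (0.920), for Ticam1 Ap5s1 (0.927), for Myd88 the aminopeptidase Rnpep (0.911) and for Irak3 Qsox1 (0.890).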

How the data were processed

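Whole-thickness duodenum and ileum of 48 samples was measured by RNA sequencing of total RNA on a NovaSeq instrument, per the labels' protocols. The deposited count table holds estimated counts per gene, and a pair of deposited normalized tables, used only for gene names and as a check, holds a signal equal to those counts divided by 1 factor per column. STAR 2.6.1d, Salmon 0.14.2, DESeq2 1.30.1 and the build mm10 are named, without roles, per the submitters' processing notes. The annotation and any use of strand are not given in the sources used here, so reads of overlapping genes may be shared. Counts were filtered with filterByExpr, scaled by TMM and fitted with 1 mean for each of 16 groups over 46 samples in edgeR 4.0.16 (R 4.3.3, quasi-likelihood, robust). P-values were adjusted by Benjamini-Hochberg over all 21986 genes, and log2 CPM used a prior count of 2. Levels per kilobase used exon lengths of GENCODE on mm10. Each SE was obtained as the size of the log2 change over the root of its F statistic. CPM precision is limited by counts, which were as low as 5 for Cd14.

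Every one of the 10 genes is described, and likeness names the genes of highest Pearson r. The genes, marker lists and pathway lists were chosen with earlier results of these data known. Same-numbered duodenum and ileum samples deviated together only in part (mean r 0.155 over 23 pairs, from -0.363 to 0.672), so numbers were not treated as pairs. Alternatives were other size factors, filters, tools (DESeq2 1.42.0) and sample sets, a replicate block, leaving out each sample, and, chosen after seeing the data, a sex index as covariate and leaving out 6 libraries of overlapping Pdx1 level. On simulated counts of 21986 genes with 200 changed, the fit of ileum week 4 against day 0 recovered 41% of 2-fold and 61% of 4-fold changes, with 4.7% of calls false. For the difference in that change between regions it recovered 19% and 49%, with 2.9% of calls false. The simulation changed genes in ileum week 4 only, while in the data 41.9% of all genes were called for ileum week 4 against day 0. The adjustment over genes thus works on unlike shares, and these rates need not hold for the reported fits.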

Additional observations from a re-analysis of the deposited data

Results flagged for a closer look

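The age profiles of 2 genes differed between duodenum and ileum by a test of the difference itself. For Tollip the edgeR adjusted p of the interaction was 0.0124, and over the alternatives run it ranged from 0.000579 to 0.320. For Cd14 it was 0.0381, with a range from 0.00629 to 0.304. Both calls were absent when all 48 samples were kept under their labels.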

How the results depend on the processing

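No result changed direction past the threshold under the alternatives run. The counts of this section stand without the share of all genes called in the same fit. A change in a count may thus be shared by genes at large. Keeping all 48 samples gave 3 genes in place of 5 for duodenum week 2 against day 8, 1 in place of 2 for the same interval in ileum, 0 in place of 2 for the region by age interaction, and 6 in place of 19 gene and age pairs at single ages. With no filter on low counts, duodenum week 2 against day 8 gave 2 and ileum week 4 against week 3 gave 2 in place of 4. The 40 samples of the normalized tables gave 3 in place of 1 for duodenum week 3 against week 2, 7 in place of 4 for ileum day 8 against day 0, 4 for ileum week 2 against day 8, and 1 in place of 0 for the difference in the change from day 0 to week 4. With only the compared groups in the fit, duodenum week 3 against week 2 gave 2, duodenum week 4 against week 3 gave 4 in place of 2, and ileum week 4 against week 3 gave 1. Leaving out the 6 libraries of overlapping Pdx1 level, which leaves 1 ileum week 4 sample, lowered the counts for ileum week 4 against day 0 and against week 3. It also lowered that for the interaction and raised that for the difference. The sex index gave 1 for the difference. The replicate block gave 1 for the interaction, where Tollip had an adjusted p of 0.0528, ended the calls of Irak3 in ileum at week 3 against week 2 and of Tollip between regions at week 3, and changed no other call. Of 46 samples, 34 correlated best with the sample of their own number. The causes were not tested.

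Leaving out 1 sample at a time gave 9 to 10 genes for the duodenum age effect and 8 to 10 for ileum, 3 to 4 and 5 to 7 for week 4 against day 0, 5 to 7 and 2 to 5 for day 8 against day 0, 1 to 4 and 0 to 2 for week 2 against day 8, 1 and 1 to 2 for week 3 against week 2, and 2 to 3 and 2 to 4 for week 4 against week 3. Between regions it gave 8 for the average, 17 to 21 pairs at single ages, 1 to 4 for the interaction and 0 to 2 for the difference. No such fit reached the main count of 5 for duodenum week 2 against day 8, or that of 3 for ileum week 3 against week 2. DESeq2 added 4 calls and ended 0 among 230 results for single genes, and RLE size factors ended 1. Low counts limit Cd14 and Irak3 most.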

Other observations

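The levels in the libraries that were left out are given as values with no test, on a common scaling of all 48. The library labelled duodenum, day 6, number 3 held Tollip at 103 CPM and Sigirr at 21.8 CPM, beside 52.8 to 62.3 and 9.21 to 12.4 CPM in the remaining duodenum samples of day 6 and 114 to 129 and 21.7 to 24.8 CPM in ileum. Its Cd14 level was 0.459 CPM, beside 1.86 to 2.78 CPM in duodenum and 0.566 to 0.746 CPM in ileum. The library labelled ileum, day 6, number 3 held Tollip at 54.4 CPM, Sigirr at 7.85 CPM and Cd14 at 2.16 CPM. Its Irak3 level was 1.27 CPM, beside 1.26 to 1.78 CPM in the remaining ileum samples of day 6 and 1.61 to 1.97 CPM in duodenum. For Irak1, at 47.0 CPM, and Myd88, at 15.4 CPM, it lay below the ranges of both regions and nearer to that of ileum.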
